A study of Mus musculus with 4 samples.

Results

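Crym encodes µ-crystallin, a cytosolic protein that binds the thyroid hormone T3 in the presence of NADPH and also acts as a ketimine reductase. It is 1 of the 383 genes that were counted by MERFISH, an imaging method in which each mRNA molecule is decoded and counted inside intact tissue, in 4 coronal sections of mouse brain containing the striatum of both hemispheres. The gene was chosen by its measured levels in these sections, for its contrast between striatal astrocytes and neurons, its gradient across the striatum and its change from 2 to 18 months. Its values in those 3 contrasts are therefore given as a description, without a test. Crym accounted for 100618 of the 115285771 decoded transcripts, or 0.0873%. The study used Crym as a gene of 1 of its astrocyte subtypes, which it had defined in separate single-cell data. By in situ hybridization at 2 months, it also reported that Crym in astrocytes varied significantly between dorsal, central and ventral parts of the striatum.

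The groups were Young (2 months, 2 sections) and Aged (18 months, 2 sections). No treatment was given in the labels, and neither strain nor sex was stated there. Whether each section came from its own mouse is not stated in the labels, so errors and p-values measure the spread between sections. Segmentation gave 73872 to 88584 cells per section, and 281824 cells in all were kept after cells with few genes or a small volume had been left out. Depth was lowest in Aged replicate 1, in which the median kept cell held 215 transcripts, against 293 in Aged replicate 2, 325 in Young replicate 2 and 400 in Young replicate 1. No cell barcode was shared between sections. Unless another scale is named, a level is the number of Crym transcripts per 10000 transcripts of the panel, with all cells of 1 class and 1 section pooled. Since this scale is a share of the panel, it moves with the other genes of the panel as well as with Crym.

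In the brain, T4 and T3 enter cells through membrane transporters, among them OATP1C1 (encoded by Slco1c1). Astrocytes carry the deiodinase encoded by Dio2, which makes T3 from T4, and neurons take up part of that T3. µ-Crystallin holds T3 in the cytosol, and its gene is a known marker of a population of astrocytes in the striatum. In the RefSeq annotation of GRCm38.p6, Crym (gene ID 12971) spans chromosome 7, positions 120186380 to 120201989, which is 15610 bases. The files name genes by symbol alone and give no genome build.

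The files name no cell types, so classes were rebuilt from markers in a clustering that left Crym out. The cluster called astrocyte-like had all 7 astrocyte markers of the list (among them Aqp4, Gja1, Slc6a11, Cldn10, Sox9 and Plpp3) at 1.5-fold or more over the other cells, with a median of 13.4-fold. The cluster called medium spiny neuron-like (MSN-like, the projection neurons of the striatum) had all 8 of its markers at that level, with a median of 10.4-fold. Cells are called mixed, and were left out, where 3 or more markers of their own class were detected beside 3 or more of a different class. Mixed cells made up 50.2% of all kept cells, 38.7% of the striatal astrocyte-like cells and 36.6% of the striatal MSN-like cells, and they held between 61.3% and 72.8% of the Crym transcripts of a section. The striatum was outlined as the area dense in MSN-like cells. It held 3156 astrocyte-like and 33120 MSN-like cells that were not mixed.

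Striatal astrocyte-like cells had the highest Crym level of all 7 classes in each of the 4 sections. Crym stood at 76.9 in Young replicate 1, 76.5 in Young replicate 2, 58.7 in Aged replicate 1 and 82.6 in Aged replicate 2 (73.7 ± 10.4, SD, n = 4 sections). Between 460 and 857 Crym transcripts stood behind each of these values. Aged replicate 1 was the lowest, and the ages overlapped. In astrocyte-like cells outside the striatum, Crym stood at 5.41, 4.64, 4.54 and 10.8 in the same order of sections. The fold of striatum over outside ranged from 7.67 to 16.5 (12.8 ± 3.74). Among all 383 genes in astrocyte-like cells, Crym had the highest ratio of striatum to outside, with a mean log2 ratio of 3.60 (pseudocount 1). Among the next genes were Drd2 at 2.25 and Penk at 2.16, both genes of MSNs. The level of MSN markers in astrocyte-like cells is given below, and its part in this order was not tested.

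In striatal MSN-like cells, Crym stood at 13.2, 9.49, 9.44 and 14.0 in Young replicates 1 and 2 and Aged replicates 1 and 2 (11.5 ± 2.42). Every astrocyte-like value lay above every MSN-like value. Such a lack of overlap, in either direction, was found for 67.6% of the 383 genes. The fold of astrocyte-like over MSN-like cells was 5.84, 8.06, 6.21 and 5.88 (6.50 ± 1.06). Its size depended on the scale, because MSN-like cells were larger and held more transcripts. Per cell, the fold was 2.05 ± 0.279, and per cell volume 4.28 ± 0.757. By this log2 ratio, Crym ranked 44th of the 383 genes, far behind the astrocyte gene Gja1 (the gap junction protein connexin 43), which had rank 1 with a log2 ratio of 7.89, against 2.68 for Crym. Of the astrocyte markers, Cldn10, which was low in both classes, differed less between them than Crym did, as given below.

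The remaining neuron-like cells of the striatum, which lacked the MSN profile, had Crym at 5.88, 7.19, 5.24 and 8.38. The fold of astrocyte-like over neuron-like cells was 11.2 ± 1.37 within the striatum. Outside the striatum it was 1.34 ± 0.669, with values below 1 in both young sections (0.591 and 0.966) and of 1.91 in each aged section. The striatal excess of astrocyte-like over neuron-like cells was therefore not a property of the whole section. Neuron-like cells outside the striatum had Crym at 9.17, 4.80, 2.38 and 5.65, and Young replicate 1 was the highest.

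Other striatal glial and vascular classes, which are not known as sources of Crym, had levels on both sides of those of MSN-like cells. Microglia-like cells had 11.4, 14.1, 10.1 and 16.9 and oligodendrocyte precursor-like cells 12.4 to 17.2. Vascular-like cells had 15.2 to 22.1 and oligodendrocyte-like cells 5.15 to 11.8. Per 10000 transcripts, the MSN-like level was 0.672 to 1.15 times the microglia-like level and 0.595 to 0.829 times the vascular-like level. It was 0.757 to 0.895 times the oligodendrocyte precursor-like level and 1.19 to 1.83 times the oligodendrocyte-like level, above 1 in 4 of 4 sections for the latter. Per cell volume, the ratio of MSN-like cells was 1.29 to 2.31 to microglia-like, 0.872 to 1.16 to vascular-like, 0.942 to 1.36 to oligodendrocyte precursor-like and 2.06 to 3.43 to oligodendrocyte-like cells. Where MSN-like cells stood among these classes thus depended on the scale. Striatal astrocyte-like cells stood above all of these classes, at 5.70 ± 0.778 times the microglia-like and 4.30 ± 0.770 times the vascular-like level. All of these classes were lower outside the striatum, where microglia-like cells had 1.32 to 5.57 and vascular-like cells 1.14 to 3.06.

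**Figure D1:**
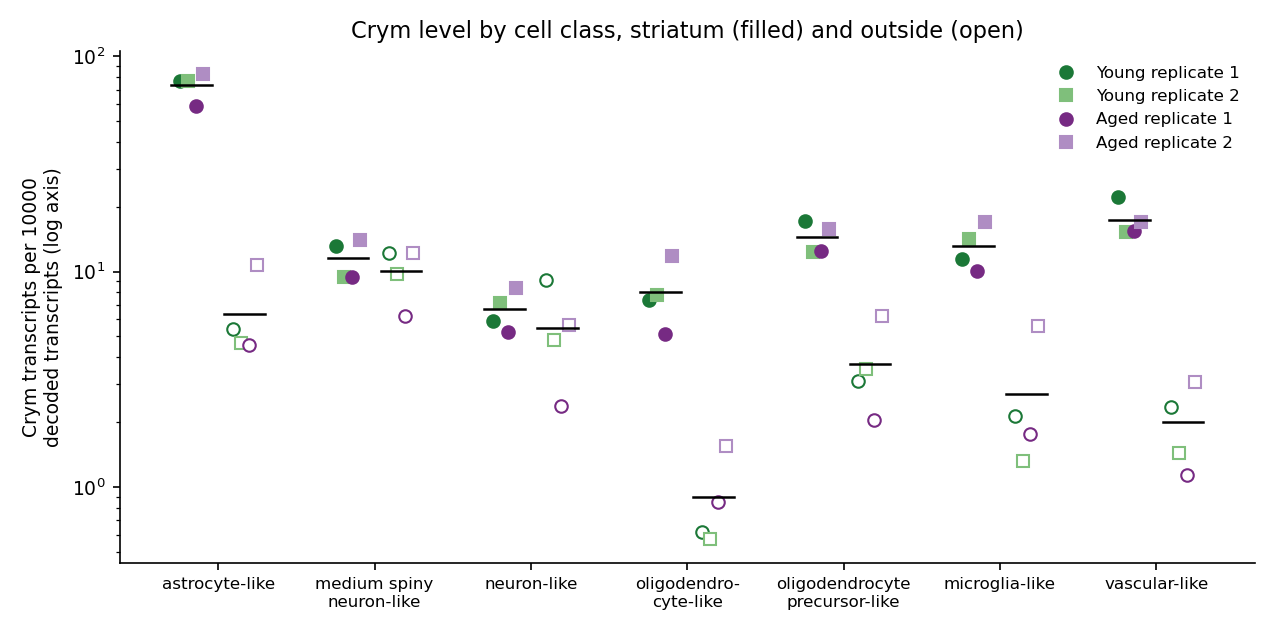
Crym transcripts per 10000 panel transcripts (log axis) in each cell class, with a point for each of the 4 sections, filled for the striatum and open for outside it, and a line at the mean of the 4 sections. Striatal astrocyte-like cells lie between 58.7 and 82.6, above every other class, whereas striatal MSN-like cells (9.44 to 14.0) overlap the striatal microglia-like cells (10.1 to 16.9).

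Shares of cells with at least 1 Crym transcript depended on depth. In the striatum, 39.4%, 33.8%, 28.5% and 38.8% of astrocyte-like cells and 33.7%, 23.8%, 18.2% and 31.0% of MSN-like cells held one. The median astrocyte-like cell held 74 to 99 transcripts and the median MSN-like cell 220 to 384. Thinning each cell to 50 transcripts, with shallower cells left out, gave shares of 20.7% to 27.6% in astrocyte-like and 4.81% to 7.49% in MSN-like cells. The corresponding share of microglia-like cells overlapped the latter range (3.96% to 7.43% thinned, 6.51% to 12.99% unthinned, median depth of 63 to 103 transcripts).

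Within the astrocyte-like cells of the striatum, Crym was uneven. The median cell held 0 Crym transcripts in each section, whereas the highest cells held 13, 12, 10 and 20. Between 2.28% and 5.82% of the cells held 5 or more. The 10% of cells with the most Crym held 53.9% to 61.1% of the Crym transcripts of their class. Striatal astrocyte-like cells that were not mixed made up 0.985% to 1.19% of the kept cells of a section and held 2.18% to 4.03% of its Crym transcripts, whereas striatal MSN-like cells held 13.4% to 20.1%.

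Because transcripts of a neighbouring cell can fall inside a cell's outline, markers of the other class were measured in both classes. The 8 MSN markers were present in striatal astrocyte-like cells at 4.41% to 7.10% of their summed level in MSN-like cells, and none was at 0 (Drd1 at 2.12% to 3.45%, Ptpn5 at 22.0% to 33.0%). The 7 astrocyte markers were present in striatal MSN-like cells at 1.03% to 1.69% of their summed level in astrocyte-like cells, and at 0.296% to 0.570% for Gja1. Cldn10, at 18.1% to 30.3%, was the exception among them. Its level was low, at 7.45 to 11.2 in astrocyte-like and 1.47 to 2.26 in MSN-like cells, so a small background weighs more in its share. Crym in MSN-like cells was at 12.4% to 17.1% of its astrocyte-like level. That is above the share of the astrocyte markers as a whole and below that of Cldn10.

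Both classes were also divided by whether any marker of the other class was detected. Cells without one were shallower, with a median of 57 to 72 against 94 to 150 transcripts in astrocyte-like and 142 to 213 against 275 to 482 in MSN-like cells, so this division is also one by depth. Astrocyte-like cells in which no MSN marker was detected (376 to 418 cells per section) had Crym at 69.8, 69.0, 67.5 and 71.4, and those with at least 1 at 80.6, 81.5, 52.8 and 90.7. The Crym level of striatal astrocyte-like cells was thus higher without MSN markers in Aged replicate 1 and lower without them in the other sections. MSN-like cells in which no astrocyte marker was detected had Crym at 11.0, 6.81, 7.61 and 12.4, against 13.7, 10.3, 10.1 and 14.6 in the remaining MSN-like cells. They were lower in each section, and part of their Crym remained when no astrocyte marker was seen. Whether that remainder was made in MSNs was not tested.

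Crym differed between the D1 and D2 types of MSNs by little. These are the neurons of the direct and indirect pathways, and they were told apart by Drd1 against Drd2, Penk and Gpr6. D1 type cells had Crym at 13.03, 9.07, 9.35 and 13.5, and D2 type cells at 13.1, 9.81, 9.23 and 13.8. The ratio of D1 over D2 type was 0.925 to 1.01, and below 1 in 3 of 4 sections. Per cell, the direction was the other one, with a mean of 0.491 in D1 type and 0.419 in D2 type cells. The median D1 type cell held 273 to 450.5 transcripts and the median D2 type cell 219 to 364. Shallower MSN-like cells had more Crym per 10000, as given at the end, and the part of depth in the D1 and D2 values was not tested. In edgeR's quasi-likelihood fit with the section as a block, the log2 difference of D1 over D2 was -0.090 (SE 0.037, adjusted p = 0.0374), where 51.7% of the 379 genes tested passed the threshold of 0.05. It did not pass in DESeq2 (-0.068, adjusted p = 0.338), nor when any 1 of the 4 sections was left out (adjusted p of 0.0650 to 0.197).

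Across the striatum, Crym in astrocyte-like cells increased from dorsal to ventral. In the dorsal striatum, it stood at 55.9, 51.2, 28.6 and 49.1 in Young replicates 1 and 2 and Aged replicates 1 and 2 (46.2 ± 12.1). In the ventral striatum, it stood at 96.0, 107.7, 85.0 and 117.1 (101 ± 14.0), so that all ventral values lay above all dorsal ones. Of the 230 genes with enough counts, 12.6% did not overlap between ventral and dorsal. The fold within a section was 1.72, 2.10, 2.97 and 2.39. The medial striatum had 90.1, 79.2, 71.8 and 94.1 and the lateral striatum 59.1, 72.6, 43.1 and 58.0, a fold of 1.48 ± 0.263. Medial exceeded lateral in each section, by least in Young replicate 2 (1.09-fold), and the ranges over sections overlapped slightly.

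MSN-like cells had gradients along both axes as well, at a lower level. Their dorsal Crym was 7.43, 6.01, 4.84 and 9.19 and their ventral Crym 19.0, 13.9, 13.2 and 20.6, a fold of 2.46 ± 0.226. Their medial Crym was 20.6, 14.4, 13.1 and 20.5 and their lateral Crym 7.93, 5.27, 6.93 and 7.57, a fold of 2.48 ± 0.3995. Dorsal and ventral values did not overlap, and neither did medial and lateral ones. Of the 383 genes, 17% and 17.2% did not overlap in these comparisons.

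**Figure D2:**
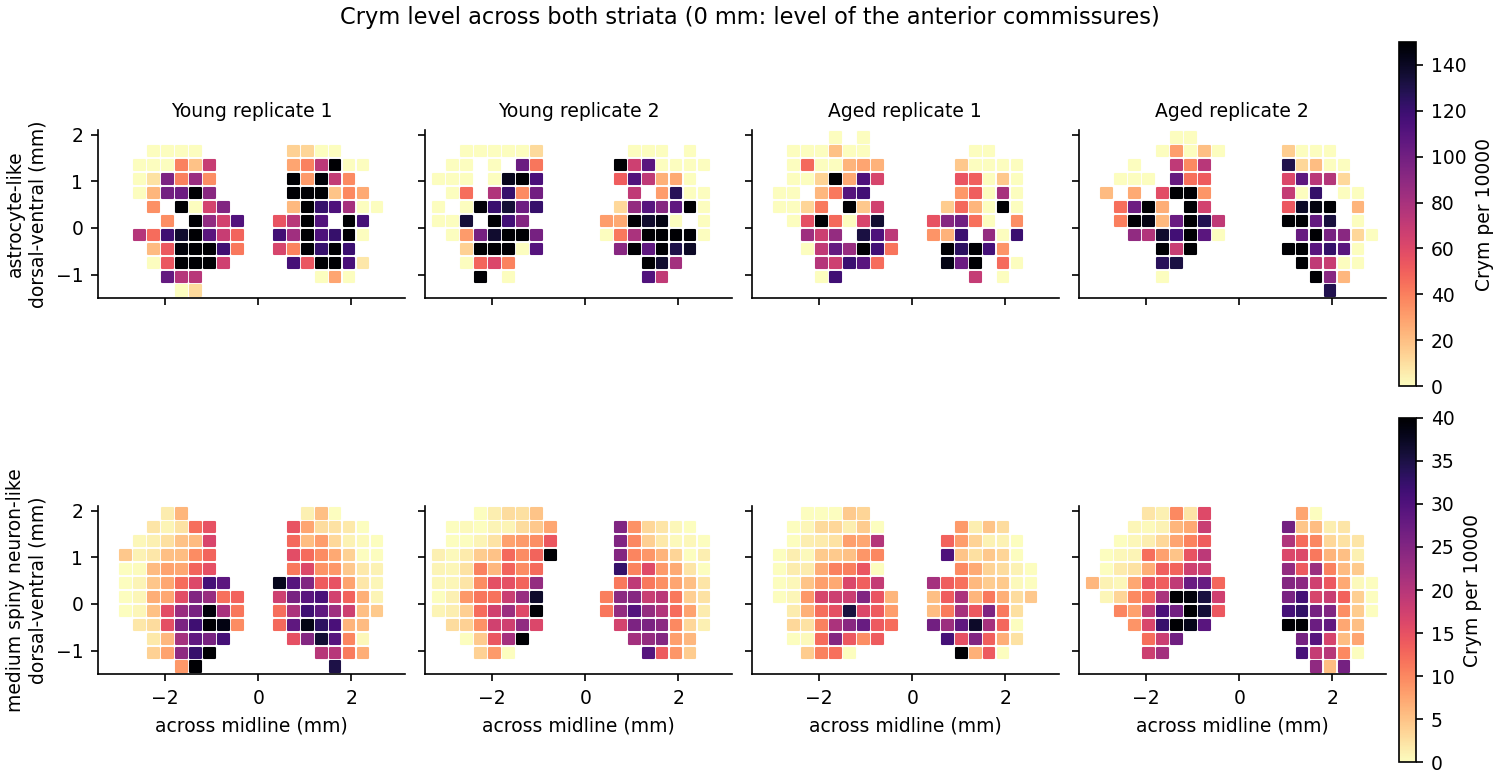
Crym transcripts per 10000 panel transcripts in squares of 300 µm with at least 3 cells, for striatal astrocyte-like cells (top) and MSN-like cells (bottom) in each of the 4 sections, turned so that dorsal is up. Axes are distances in mm, and colours are capped at 150 and 40. The highest squares lie medially and ventrally in both classes, and the dorsolateral edge is lowest.

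In segments of 500 µm counted from the dorsal edge, the mean level in astrocyte-like cells was 7.40, 49.7, 62.3, 88.6, 119 and 90.6 from segment 1 to segment 6. In MSN-like cells it was 4.16, 5.91, 8.53, 13.5, 19.7 and 16.5. Both classes had their highest mean in segment 5. In astrocyte-like cells, segment 1 differed from segment 2 beyond their spread (3.05 to 9.67 against 29.4 to 63.6), whereas segments 2 and 3 overlapped (42.4 to 75.8 in segment 3), as did segments 3 and 4 (67.9 to 107.1 in segment 4). The fold of astrocyte-like over MSN-like cells was 1.85 ± 0.841 in segment 1 and between 5.69 and 8.41 on average in the other segments. The dorsal edge was thus the place where both classes came closest.

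**Figure D3:**
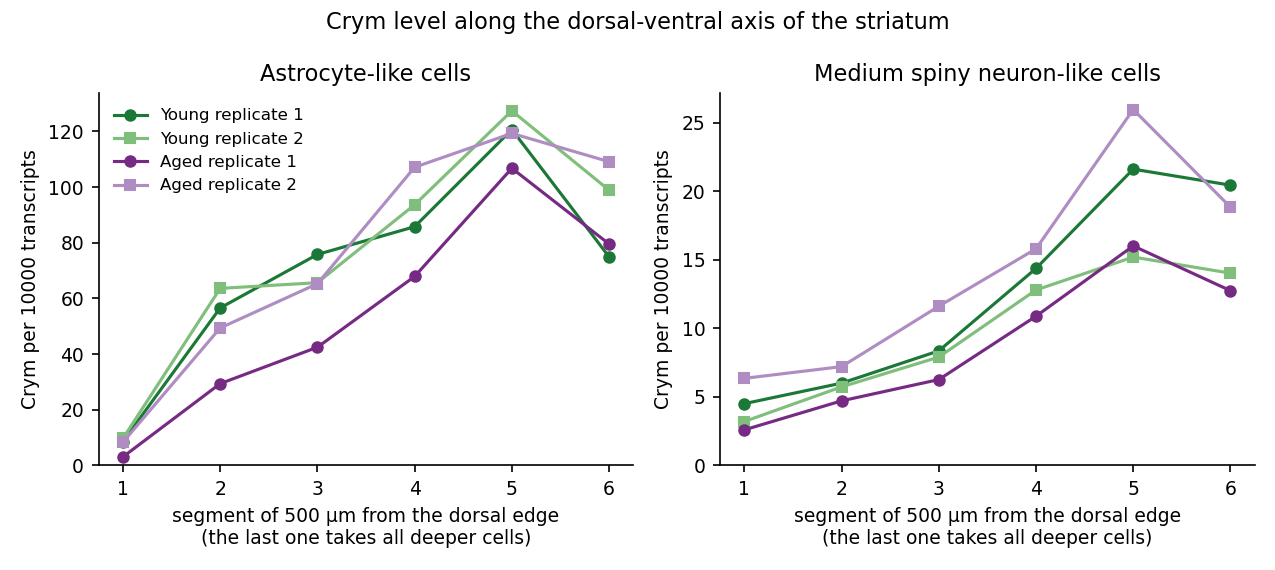
Crym transcripts per 10000 panel transcripts by distance from the dorsal edge of the striatum in 6 segments of 500 µm, with a line for each section, for astrocyte-like and MSN-like cells. The mean reaches 119 in astrocyte-like and 19.7 in MSN-like cells in segment 5 and starts at 7.40 and 4.16 in segment 1.

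Divided by both axes, the ventral medial region had the highest mean (114 ± 21.4 in astrocyte-like, 23.8 in MSN-like cells) and the dorsal lateral one the lowest (31.7 ± 11.1 and 3.65 ± 0.728). Within the ventral striatum, the medial over lateral fold of astrocyte-like cells was 1.26, 0.998, 1.44 and 1.98, so Young replicate 2 had no medial excess there. Within the dorsal striatum it was 1.36 to 2.48. In the 12 zones made from 6 segments and 2 sides, the medial zone of segment 5 was highest in astrocyte-like cells at 128.8, 131.3, 132.3 and 143.2 (134 ± 6.36). In the lateral zone of segment 1, no Crym transcript was counted in 132 astrocyte-like cells with 14998 transcripts, which allows a level of up to 2.00 per 10000 (3 counts, for counting error only). Over the 48 zones of the 4 sections, the log2 levels in both classes had a Pearson correlation of 0.838. Those points share sections and position, so the value is a description.

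Measured in rings of 500 µm around the anterior commissure, a fibre tract that crosses the ventral striatum, the level fell from ring 2 to ring 4 in each section in both classes. In astrocyte-like cells the mean was 107 in the innermost ring, 102 in ring 2, 56.4 in ring 3 and 5.41 in ring 4. From the innermost ring to ring 2 it was higher in both young sections (106.0 to 115.8 and 88.3 to 110.3) and lower in both aged ones (105.1 to 74.4 and 129.0 to 107.5). No Crym transcript was counted in the 35 astrocyte-like cells at 2000 µm or more, which allows up to 8.56 per 10000. In MSN-like cells the means were 25.4, 16.1, 6.96, 2.51 and 0.517. The innermost ring exceeded ring 4 by 14.0- to 31.9-fold in astrocyte-like and by 9.15- to 12.1-fold in MSN-like cells. The distance to the commissure was chosen as a measure after the levels had been seen.

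The gradients could be set against those of all genes. In edgeR's fit with the section as a block, 9.88% of 253 genes differed between ventral and dorsal astrocyte-like cells and 29.8% of 383 genes between ventral and dorsal MSN-like cells at an adjusted p under 0.05. By the signed log2 difference, ranked from the most ventral gene down, Crym was 3rd of 253 genes in astrocyte-like cells (1.24, SE 0.13). It was 5th of 383 in MSN-like cells (1.18, SE 0.08). Between medial and lateral, 31.8% of 255 genes and 45.2% of 383 genes passed. Ranked from the most medial gene down, Crym was 76th of 255 in astrocyte-like cells (0.38, SE 0.11) and 4th of 383 in MSN-like cells (1.26, SE 0.07). Among genes higher ventrally, Crym was thus near the top in both classes, and among genes higher medially only in MSN-like cells. Genes higher dorsally or laterally stand at the other end of these ranks, whatever the size of their difference.

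Whether the gradients differed between both classes was not used to choose the gene and was tested as the interaction of class and region. The medial excess was smaller in astrocyte-like than in MSN-like cells, with a log2 difference of -0.85 (SE 0.15, adjusted p = 0.000270), where 16.4% of 383 genes passed. Under the other settings and with each section left out, it ranged from -1.10 to -0.67 and passed each time. In folds, the medial over lateral ratio was 1.52, 1.09, 1.67 and 1.62 in astrocyte-like and 2.59, 2.73, 1.89 and 2.71 in MSN-like cells, lower in astrocyte-like cells in 4 of 4 sections. Accordingly, the fold of astrocyte-like over MSN-like cells was 4.99 ± 0.587 medially and 8.77 ± 3.38 laterally. Among cells without a detected marker of the other class, the order of the classes turned in Aged replicate 1, as given below. The dorsal-ventral gradient had a difference of 0.037 (SE 0.15, adjusted p = 0.906), where 14.9% of genes passed, and the sign of this small value turned with the processing. That p does not show that the dorsal-ventral gradients were alike.

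Other classes had higher Crym ventrally too, in each section except Aged replicate 1 in microglia-like cells. The fold of ventral over dorsal was 1.69 to 3.74 in oligodendrocyte-like, 1.25 to 2.47 in vascular-like, 1.64 to 2.69 in neuron-like, 1.18 to 2.19 in oligodendrocyte precursor-like and 0.974 to 2.48 in microglia-like cells. Medial over lateral, the fold was 1.51 to 2.36, 1.14 to 1.37, 1.26 to 2.35, 1.37 to 4.67 and 0.983 to 1.86 in the same order. It was below 1 only in Aged replicate 1 in microglia-like cells. The part that transcripts of neighbouring cells had in these differences was not tested. Where no marker of the other class was detected, the ventral over dorsal fold was 1.51 to 3.55 in astrocyte-like cells and 2.39 to 2.70 in MSN-like cells, and the medial over lateral fold 1.17 to 2.12 and 1.68 to 3.04. Both gradients kept their direction in these cells in each section.

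**Figure D4:**
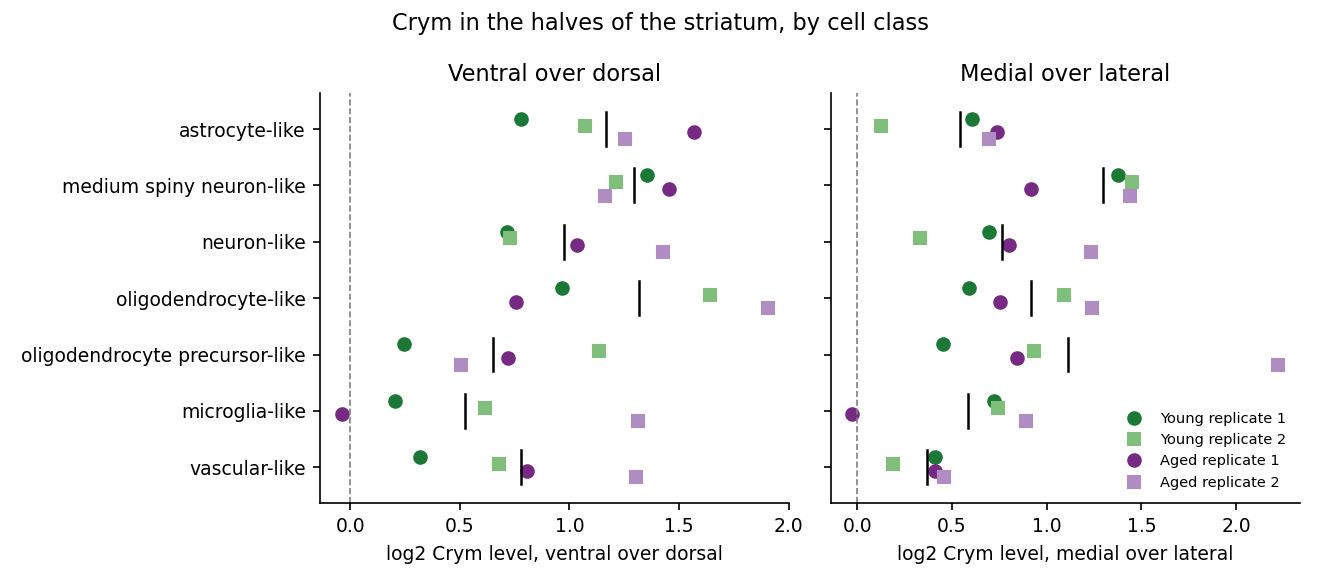
Log2 ratio of the Crym level, ventral over dorsal and medial over lateral, in 7 cell classes, with a point for each of the 4 sections and a line at their mean. MSN-like cells have mean log2 ratios of 1.30 on both axes, and astrocyte-like cells 1.17 and 0.54.

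Between 2 and 18 months, the size and direction of the change in Crym depended on the section and the scale. In striatal astrocyte-like cells, the Young mean was 76.7 and the Aged mean 70.6, with values of 58.7 and 82.6 on either side of the young ones. The log2 change of Aged over Young was -0.14 (SE 0.20) in edgeR's fit, in which 0 of 274 genes (0%) passed the adjusted threshold, 28 had an unadjusted p under 0.05, and DESeq2 called 3. In striatal MSN-like cells it was 0.060 (SE 0.23), with 0 of 383 genes (0%) called, 26 at an unadjusted p under 0.05 and 0 called by DESeq2. With 1 section left out, the astrocyte-like change ranged from -0.38 (without Aged replicate 2) to 0.047 (without Aged replicate 1, the shallowest section), and the MSN-like change from -0.23 (without Aged replicate 2) to 0.30 (without Aged replicate 1). Per cell volume, the log2 change was -0.57 in astrocyte-like and -0.41 in MSN-like cells. That scale is not corrected for the depth of a section, and both aged sections were shallower than both young ones. The median kept cell held 215 and 293 transcripts in the aged against 400 and 325 in the young sections. The part of depth in this change was not tested. By rank of the log2 change, Crym stood 176th of 274 and 153rd of 383 genes, near the middle of the panel.

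In the other classes, taken over the whole section, the log2 change of Crym with age was -0.67 (SE 0.41) in neuron-like, -0.18 (SE 0.36) in oligodendrocyte precursor-like, -0.13 (SE 0.25) in vascular-like, -0.049 (SE 0.38) in microglia-like and 0.29 (SE 0.34) in oligodendrocyte-like cells. The percentages of genes called in these fits were 0, 7.6, 1.57, 0.299 and 8.99. The neuron-like change stood at rank 380 of 383 genes, near the lower end, with Young replicate 1 the highest section outside the striatum (9.17 against 2.38 to 5.65 in the others).

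Within the dorsal striatum, both aged sections lay below both young ones in astrocyte-like cells (28.6 and 49.1 against 51.2 and 55.9). Of the 247 genes with enough counts there, 15% had both aged sections below both young. Over the whole ventral striatum, the values overlapped (85.0 and 117.1 against 96.0 and 107.7), as they did medially. In the lateral striatum, both aged sections also lay below both young ones (43.1 and 58.0 against 59.1 and 72.6). The same held in the ventral lateral region (Aged mean 71.0, Young mean 95.5). In the medial zone of segment 5, both aged sections lay above (137.7 against 130.1). The share of all genes without overlap was not counted in these other regions. A change of the ventral over dorsal gradient with age was tested as an interaction. In astrocyte-like cells the fold was 2.97 and 2.39 in the aged against 1.72 and 2.10 in the young sections. The interaction was 0.54 on the log2 scale (SE 0.20), a steeper gradient in the aged sections, with an unadjusted p of 0.0259 and an adjusted p of 0.800 by edgeR. No gene of 253 passed there (0%), with 10 at an unadjusted p under 0.05 and 0 called by DESeq2. In MSN-like cells it was 0.048 (SE 0.17, adjusted p = 0.962, 0% of 383 genes called, 7 at an unadjusted p under 0.05). Along the medial-lateral axis it was 0.40 in astrocyte-like cells (SE 0.18, adjusted p = 0.513, 0.784% of 255 genes called) and -0.19 in MSN-like cells (SE 0.14, adjusted p = 0.998, 0% of 383 called, 10 at an unadjusted p under 0.05). A change of the Crym gradient with age was thus not detectable with 2 sections per age.

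Other genes of thyroid hormone handling on the panel included Dio2, Slco1c1 and Thrsp. Dio2 was highest in astrocyte-like cells, at 61.9 to 72.2 over the whole section, against 5.12 to 6.40 in MSN-like cells. Slco1c1, the transporter OATP1C1, was at 156.1 to 185.9 in vascular-like and 118.6 to 144.9 in astrocyte-like cells, and at 0.943 to 1.19 in MSN-like cells. Thrsp, which encodes a protein of lipid synthesis that responds to thyroid hormone, was low throughout (1.17 to 7.59 in these classes). In astrocyte-like cells of the striatum against those outside, the mean of Slco1c1 was 177 against 119, that of Dio2 66.8 against 67.2 and that of Thrsp 2.74 against 8.01. Slco1c1 was higher in the striatum in each section (197.1, 167.6, 185.7 and 156.4 against 117.1, 109.2, 136.0 and 115.5). Its striatal excess was smaller than that of Crym.

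Along the dorsal-ventral axis, 1 of these 3 genes passed in astrocyte-like cells and 1 in MSN-like cells, where 9.88% and 29.8% of all genes passed. In both classes it was Dio2. In astrocyte-like cells, Dio2 stood at 106.8, 83.2, 80.2 and 55.2 dorsally and at 58.6, 55.3, 47.4 and 48.7 ventrally, higher dorsally in each section, although the ranges over sections overlapped. Dio2 was lower ventrally by log2 -0.51 in astrocyte-like (SE 0.13, adjusted p = 0.0347) and -0.56 in MSN-like cells (SE 0.08, adjusted p = 0.000382). It was also lower medially, by log2 -1.21 (SE 0.10, adjusted p = 1.40e-05) and -0.94 (SE 0.08, adjusted p = 3.49e-08). In astrocyte-like cells, Dio2 stood at 53.6, 55.9, 40.7 and 36.2 medially and at 119.1, 92.4, 88.7 and 85.6 laterally, without overlap, as was the case for 21.2% of the 236 genes with enough counts. Dio2 transcripts were thus higher in the dorsal and lateral astrocyte-like cells, where Crym transcripts were lower. The enzyme and its activity were not measured. Medially against laterally, 2 of the 3 genes were called in astrocyte-like cells, both lower (Slco1c1 at -0.37, adjusted p = 0.00770, beside Dio2), where 31.8% of all genes passed. In MSN-like cells 2 were called, where 45.2% of all genes passed, namely Dio2 and Thrsp at -0.47 (adjusted p = 0.000471). Both genes were low in MSN-like cells. Over the whole section, Dio2 stood at 5.12 to 6.40 there, below the 6.96 to 7.33 of oligodendrocyte-like cells, and Thrsp at 1.17 to 1.70. The part that transcripts of neighbouring cells had in these MSN-like differences was not tested.

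**Figure D5:**
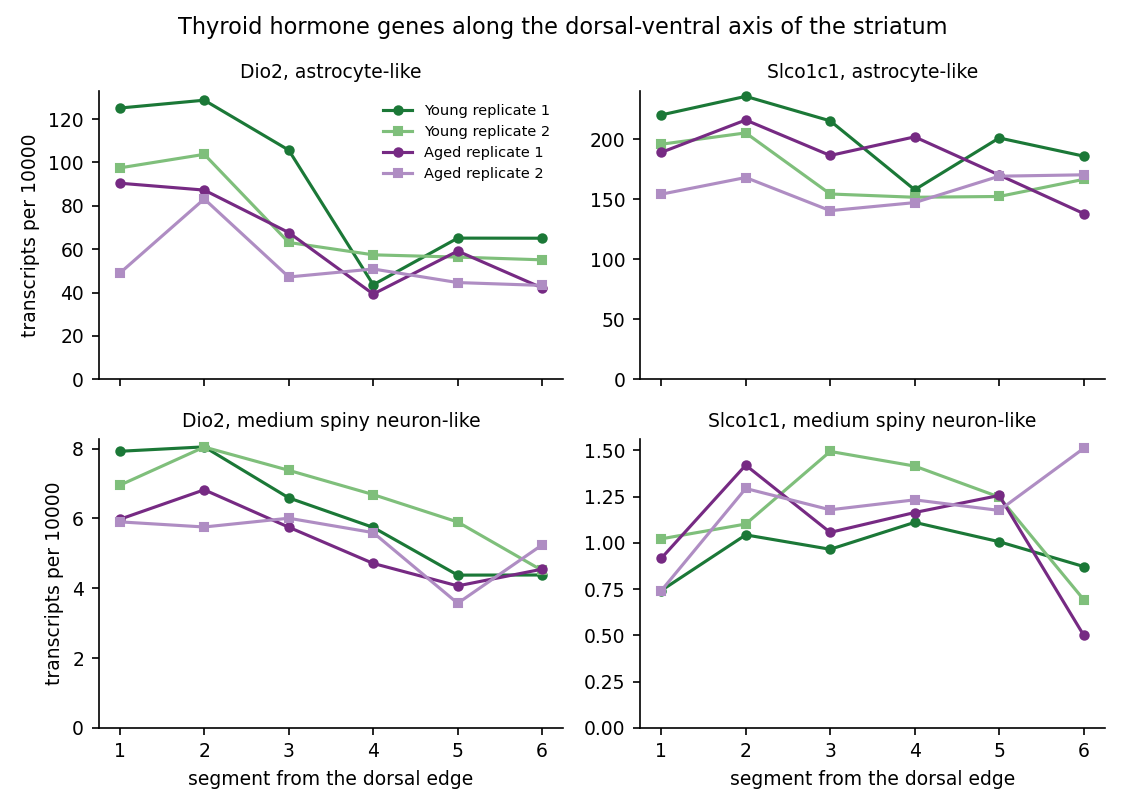
Levels of Dio2 and Slco1c1 per 10000 panel transcripts by distance from the dorsal edge of the striatum in 6 segments of 500 µm, in astrocyte-like cells (top) and MSN-like cells (bottom), with a line for each section. The mean of Dio2 in astrocyte-like cells is 100.7 in segment 2 and 51.4 in segment 6, and that of Slco1c1 lies between 164.6 and 206.2.

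With age, 0 of the 3 genes were called in striatal astrocyte-like, striatal MSN-like or vascular-like cells, where edgeR called 0%, 0% and 1.57% of all genes. The value nearest to the threshold among them in astrocyte-like cells was that of Dio2 at -0.43 (SE 0.20, adjusted p = 0.446). Between D1 and D2 type MSN-like cells, Dio2 was lower in D1 type by edgeR (-0.29, SE 0.05, adjusted p = 1.58e-06), where 51.7% of the 379 genes tested passed. D2 type cells were shallower, with a median of 219 to 364 against 273 to 450.5 transcripts. The parts of depth and of neighbouring cells' transcripts in this difference were not tested.

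The genes whose pattern was most like that of Crym were found by the Pearson correlation of log2 levels over the 48 zones, centred within each section. In MSN-like cells they included Marcks (0.962), a membrane-bound actin regulator, Brinp3 (0.936), Kctd12 (0.914), an auxiliary subunit of the GABA-B receptor, and Gap43 (0.912), a growth cone protein. Marcks stood at 112.2, 120.9, 96.7 and 106.1 in ventral and at 61.6, 68.0, 45.2 and 58.8 in dorsal MSN-like cells. The opposite pattern was that of Sema7a (-0.918), a semaphorin, Brinp1 (-0.908) and Rgs4 (-0.862), a regulator of G protein signalling. Sema7a stood at 21.8, 22.2, 14.3 and 15.7 dorsally and at 8.498, 9.995, 6.66 and 6.04 ventrally.

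In astrocyte-like cells the likeness was weaker. The highest values were those of Apoe (0.704), the main lipid carrier made by astrocytes, Timp3 (0.611), an inhibitor of metalloproteinases, Il33 (0.593), Gap43 (0.586) and Pfn2 (0.558). Apoe had 688.9, 735.0, 744.1 and 733.5 ventrally and 611.1, 617.8, 680.8 and 659.7 dorsally, a small difference beside that of Crym. The lowest values were those of Prodh (-0.632), the proline dehydrogenase, Jun (-0.556) and Scn4b (-0.547). Gap43 was the only gene among the 5 most alike in both classes. Over 7 cell classes in 4 sections (28 points), Sox11 (0.870), Bcl2 (0.869), Id4 (0.858), Cldn10 (0.840) and Blcap (0.827) were nearest to Crym and Dusp3 (-0.837), Il7 (-0.794) and Grb14 (-0.792) farthest. The points of a correlation share their sections, so these values are descriptions without a test.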

How the data were processed

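For each of the 4 sections, the authors decoded MERFISH images with MERLIN, segmented cells with Vizgen software and deposited whole-number counts of transcripts per gene and cell, not normalized, before filtering cells. Cell positions and cell volumes, a signal from the images in µm³, were deposited as well. A table of the mean signal per gene and section by the authors served only to check the reading of the files. Group and replicate come from the sample titles. Inside the young sections' files, the section numbers differ from those titles. The members and gene lists were chosen with earlier results of these data known.

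Cells with under 10 genes or under 50 µm³ were removed, after the study's methods. Counts were scaled to 10000 per cell, log-transformed, scaled with a limit of 10, reduced to 15 principal components and clustered by the Louvain method (igraph 0.11.9, 20 neighbours, resolution 0.08). Crym and the genes of thyroid hormone handling were kept out of the clustering. A cluster took the class whose marker list had the highest median fold, with at least 3 markers at 1.5-fold or more. All names are thus rebuilt, and no doublet caller was run. The study also removed cells with markers of several types. Its threshold is not given in the sources used here, and the rule for mixed cells takes its place.

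The striatum was made of squares of 50 µm where at least 40% of the cells within 150 µm were MSN-like (the 2 largest areas after an erosion of 4 squares). Dorsal is the side away from the anterior commissure line, found from patches with at least 70% oligodendrocyte-like cells within 100 µm in all 8 hemispheres. Counts were summed per class and section and tested with edgeR 4.0.16 (TMM, filterByExpr, quasi-likelihood, Benjamini-Hochberg over all genes tested, threshold 0.05) in R 4.3.3. DESeq2 1.42.0 and limma 3.58.1 were alternatives. Scripts were tested on simulated data. The remaining software was scikit-learn 1.9.0, matplotlib 3.10.9, scipy 1.17.1, pandas 2.3.3 and numpy 2.4.6 in Python 3.11.15. Genes named were Crym, thyroid hormone genes, the 5 most and 3 least alike in pattern, and class markers. Results for some genes that this rule names are not reported here.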

Additional observations from a re-analysis of the deposited data

Results flagged for a closer look

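For 1 value, the gradient across the striatum differed between astrocyte-like and MSN-like cells by a test of the interaction of class and region in edgeR. The medial over lateral difference of Crym was lower in astrocyte-like cells. The class difference was -0.85 on the log2 scale (SE 0.15, adjusted p = 0.000270), with both classes higher medially in each of the 4 sections. This test was not run with the finer clustering, which set neuroblast-like cells apart. Nor was it run on cells without a detected marker of the other class, in which the order of the classes turned in Aged replicate 1.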

How the results depend on the processing

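Direction was kept for Crym's level in astrocyte-like over MSN-like cells (log2 2.69 as given above) and for its 4 gradients under each alternative run. The level was 2.34 with mixed cells kept, 1.02 per cell and 2.08 per cell volume. Gradients between the outermost of 3 parts of the striatum were larger, with 1.79 (ventral over dorsal) and 1.30 (medial over lateral) in astrocyte-like and 1.90 and 2.32 in MSN-like cells. With 1 section left out, the level ranged from 2.58 to 2.73, the astrocyte-like gradients from 1.04 to 1.30 and from 0.48 to 0.68, and the MSN-like ones from 1.24 to 1.34 and from 1.24 to 1.42.

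The age change of Crym was -0.57 in astrocyte-like and -0.41 in MSN-like cells per cell volume, a scale not corrected for depth. With 1 section left out it ranged from -0.38 to 0.047 and from -0.23 to 0.30. The class difference of the ventral over dorsal gradient turned to -0.088 with mixed cells kept and -0.059 between the outer parts. The age change of that gradient ranged from 0.37 to 0.70 in astrocyte-like and from -0.16 to 0.27 in MSN-like cells with 1 section left out, and that of the medial over lateral gradient from 0.19 to 0.65 and from -0.49 to 0.050. The D1 over D2 difference was -0.068 by DESeq2 and ranged from -0.097 to -0.070 with 1 section left out. The causes were not tested.

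Genes called with age in astrocyte-like cells numbered 0 by the fit used here and 2 to 9 under 10 other settings. In vascular-like cells 6 fell to 0 with mixed cells kept and to 0 to 2 with 1 section left out. The age change of the ventral over dorsal gradient in MSN-like cells had 0 calls, but 8 without Aged replicate 1 and 35 without Aged replicate 2. That of the medial over lateral gradient in astrocyte-like cells had 2, and 11 without Aged replicate 2. The class difference had 63 calls between medial and lateral (113 with mixed cells kept) and 57 between ventral and dorsal (28 without Aged replicate 2 and 36 without Young replicate 2).

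Age changes of thyroid hormone genes that turned in sign with 1 section left out, none of them called, were Slco1c1 (0.032 without Young replicate 1 and 0.030 without Aged replicate 2, range -0.28 to 0.032) and Thrsp (-0.36 without Young replicate 1, -0.25 without Aged replicate 1, range -0.36 to 1.03) in astrocyte-like cells. In MSN-like cells it was Slco1c1 (-0.17 without Young replicate 1, range -0.17 to 0.30), and in vascular-like cells Slco1c1 (-0.0051 without Young replicate 2, -0.16 without Aged replicate 1, range -0.16 to 0.18).

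Sections with the same replicate number share only that number. Their deviations had a correlation of -0.09 in astrocyte-like cells (273 genes) and -0.34 in MSN-like cells (383 genes). With the replicate block, Crym changed with age by -0.15 and 0.048, and calls were 4, 0 and, in vascular-like cells, 2. With the numbers crossed, an alternative chosen after seeing the data, 7, 0 and 6 genes were called. Depth limits the regional astrocyte-like values. Whole-striatum values rested on 460 to 857 Crym transcripts per section, but segment 1 on 33 and ring 4 on 31 over all 4 sections.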

Other observations

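Outside the striatum, Crym in neuron-like cells was divided between clusters at the finer resolution of 0.3. The larger cluster (led by Ptgs2, Pcsk2 and Stmn2) had 11.6, 5.71, 2.79 and 6.77 transcripts per 10000 in Young replicates 1 and 2 and Aged replicates 1 and 2. The cluster led by Sst, Elavl2, Nap1l5 and Gad2, genes of inhibitory neurons, had 1.84, 1.66, 1.001 and 2.17, lower in each section. These clusters carry no further name here.

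Striatal MSN-like cells with fewer transcripts than the median of their section had more Crym per 10000 (18.7, 14.4, 11.8 and 19.3) than those with more (11.8, 8.23, 8.81 and 12.6). In striatal astrocyte-like cells the corresponding values were 73.8, 81.5, 50.8 and 83.6 against 77.5, 75.5, 60.4 and 82.4, without a common direction.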
